A study of Cricetulus griseus with 6 samples.

Results

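The epidermal growth factor (EGF) family was examined in CHO-T cells after silencing of *Xbp1*. It was taken as 10 genes named by symbol, namely the ligands *Areg*, *Ereg*, *Hbegf*, *Tgfa*, *Btc* and *Epgn*, the receptors *Egfr*, *Erbb2* and *Erbb3*, and the ligand sheddase *Adam17*. Each of the 10 had 1 row among the 27873 rows of the files. CHO-T is a Chinese hamster ovary line that was infected with a retrovirus carrying mouse T-cadherin cDNA and selected with puromycin, and both conditions share this background. Cells received negative control siRNA or *Xbp1* siRNA, with 3 libraries for each, and RNA was harvested 48 h later. The study asked which pathway lies between IRE1α, a sensor of the unfolded protein response, and the release of extracellular vesicles, and silenced *Xbp1*, the transcription factor gene downstream of IRE1α, as a means of activating this sensor. Its statistics section speaks of independent biological experiments in general, whereas the labels do not say whether the 3 libraries of a condition came from separate cultures, so the errors and p-values below measure the spread between these libraries, which may be technical. The family was selected on the decreases of *Areg* and *Ereg* in this same comparison, and the other 8 genes were added by family membership. All differences between conditions for the 10 genes are therefore given as descriptions, no p-value is printed for them, and the calls counted for them further on support nothing.

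The EGF family ligands are made as membrane proteins. Metalloproteinases such as ADAM17 cut them at the cell surface, and the released ligand binds receptors of the ErbB family on the same or neighbouring cells. Amphiregulin, the product of *Areg*, binds the EGF receptor, whereas epiregulin, betacellulin and heparin-binding EGF-like growth factor can also act through ErbB4. ErbB2 has no known soluble ligand and acts as the partner of the other receptors, and ErbB3 has little kinase activity of its own. Receptor activation runs through adaptors such as GRB2 and SHC1 to the ERK kinases. *Areg*, *Ereg* and *Hbegf* are themselves among the genes that growth factor signalling can induce.

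Values are FPKM (fragments counted on a gene, divided by its exon length and by the mapped reads of the library), a scale on which levels of different genes can be compared because it corrects for length. The 3 control columns summed to between 646651 and 666267 FPKM and the 3 *Xbp1* siRNA columns to between 593487 and 600986 FPKM. FPKM files carry no read totals, but the steps between low values gave a depth of between 94.0% and 116% of that of control replicate 1 for the other 5 libraries. *Xbp1* itself had 26.0, 26.2 and 28.4 FPKM in the control libraries and 2.18, 2.11 and 1.39 FPKM in the *Xbp1* siRNA libraries, with a log2 fold change of −3.78 (standard error 0.16; limma, adjusted p = 5.61e-06). Of the ovary markers looked at, *Fshr*, *Lhcgr* and *Zp3* were listed at 0 in every library, whereas *Amh*, *Inha*, *Ddx4*, *Star* and *Gdf9* were above 0 in every library, with control means of 2.69, 2.63, 1.63, 0.822 and 0.509 FPKM. The mesenchymal gene *Vim* had between 296 and 389 FPKM. The summed level of 4 epithelial genes found, with *Krt18* and *Krt19* at 0, was between 1.83 and 2.16 FPKM in the control libraries and between 4.59 and 5.79 FPKM with *Xbp1* siRNA, and that of 6 mesenchymal genes, with *Col1a1* and *Col1a2* at 0, was between 985 and 1078 FPKM and between 643 and 712 FPKM. Most of the latter sum was *Lgals1*, with means of 603 and 334 FPKM, and *Vim*, while *Fn1* of the same list rose from 13.1 to 23.3 FPKM (log2 fold change 0.83; limma, adjusted p = 2.15e-05). The epithelial sum was mostly *Epcam*, with means of 1.82 and 4.72 FPKM (log2 fold change 1.32; limma, adjusted p = 2.56e-04). The rest of it was *Cdh1*, with means of 0.131 and 0.434 FPKM. The part of these shifts in the results below was not tested.

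*Areg* was by far the most abundant ligand. It had 1048, 1050 and 1036 FPKM in the control libraries and 121, 121 and 115 FPKM in the *Xbp1* siRNA libraries. Every control library was far above every *Xbp1* siRNA library, and the libraries within a condition lay close together, with a coefficient of variation of 0.704% for control and 2.89% for *Xbp1* siRNA. The mean was 1045 ± 7.36 FPKM for the control libraries and 119 ± 3.44 FPKM after silencing (SD, n = 3 each), or 11.4% of the control. On the scale of log2(FPKM + 0.1) the fold change was −3.13 (standard error 0.031). In the control libraries *Areg* ranked between 78 and 81 by FPKM among all entries, in the range of the most abundant transcripts of the cell. With *Xbp1* siRNA it ranked between 807 and 875.

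*Ereg* encodes epiregulin, a ligand of the EGF receptor and ErbB4. It had 13.4, 15.4 and 13.1 FPKM in the control libraries and 1.65, 1.72 and 2.26 FPKM in the *Xbp1* siRNA libraries. The conditions did not overlap. The mean was 13.9 ± 1.25 FPKM for the control libraries and 1.88 ± 0.331 FPKM after silencing (SD, n = 3 each), or 13.5% of the control, and the log2 fold change was −2.84 (standard error 0.14). *Areg* and *Ereg* differed widely in level and little in relative decrease. The ratio of *Areg* to *Ereg* was 78.5, 68.2 and 79.2 in the control libraries and 73.6, 70.1 and 51.0 in the *Xbp1* siRNA libraries. These ranges overlapped, with *Xbp1* siRNA replicate 3 lowest.

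*Hbegf*, which encodes heparin-binding EGF-like growth factor, was expressed at a lower level than *Ereg* in the control libraries and showed no decrease. It had 3.89, 3.92 and 4.83 FPKM with control siRNA and 5.28, 5.36 and 4.57 FPKM with *Xbp1* siRNA. The conditions overlapped, since control replicate 3 was above *Xbp1* siRNA replicate 3. The log2 fold change was 0.27 (standard error 0.12). As a result, the order of these ligands differed between conditions. *Ereg* was between 2.71 and 3.93 times the level of *Hbegf* in the control libraries and between 0.313 and 0.494 times its level in the *Xbp1* siRNA libraries.

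The other 3 ligands were at or near the limit of detection. *Epgn*, the gene of epigen, had 0.0572, 0.304 and 0.259 FPKM with control siRNA and 0, 0 and 0.273 FPKM with *Xbp1* siRNA. The conditions overlapped and the log2 fold change of −0.87 had a standard error of 0.68. Without *Xbp1* siRNA replicate 3, the only library of its condition with a value above 0, it was −1.50 (standard error 0.61). *Tgfa*, the gene of transforming growth factor alpha, was listed at 0 in the 3 control libraries and in *Xbp1* siRNA replicate 2, and at 0.0423 and 0.0373 FPKM in *Xbp1* siRNA replicates 1 and 3. After correction for depth these 2 values were the same, so both libraries held the same number of reads. *Btc*, the gene of betacellulin, was listed at 0 in all 6 libraries.

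**Figure D1:**
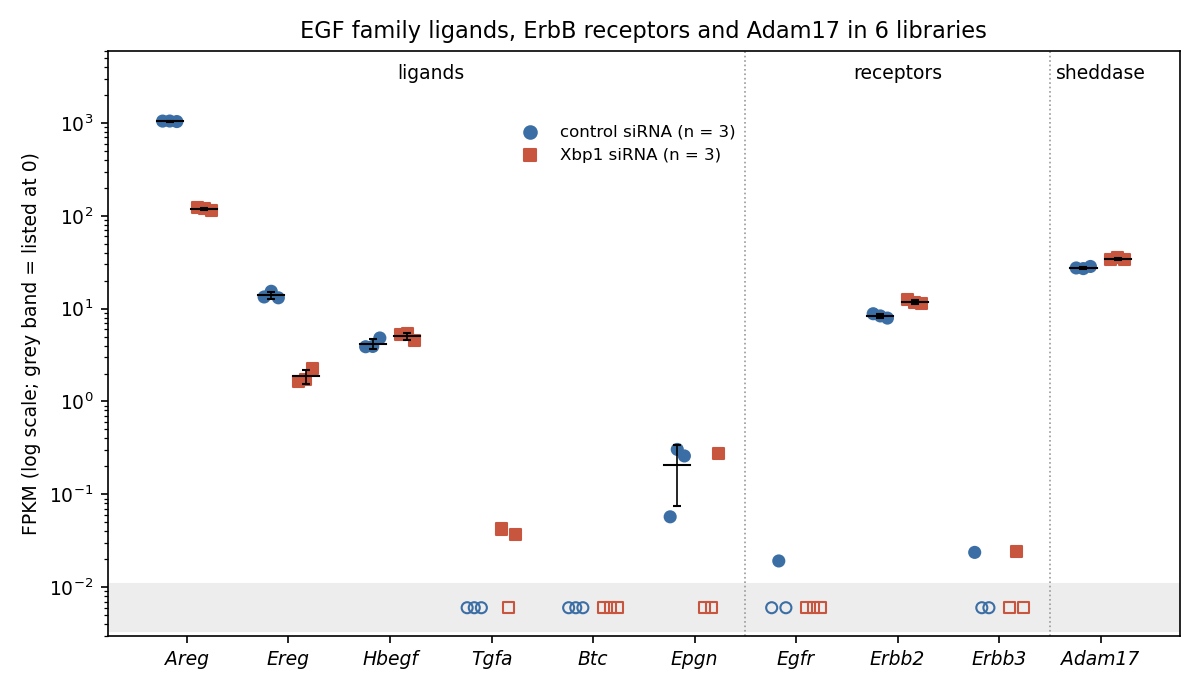
FPKM of the 10 genes in each library, on a log axis. Blue circles are the 3 control siRNA libraries and red squares the 3 *Xbp1* siRNA libraries, open symbols in the grey band are values listed at 0, and black lines give mean ± SD where all 3 values were above 0. *Areg* lies near 1045 FPKM with control siRNA and near 119 FPKM with *Xbp1* siRNA, *Ereg* shows a gap of similar size at a lower level, and *Tgfa*, *Btc*, *Egfr* and *Erbb3* lie at or close to 0 in both conditions.

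The 6 ligands together summed to 1063 ± 7.72 FPKM in the control libraries and to 126 ± 3.38 FPKM after silencing (SD, n = 3 each). *Areg* made up between 98.2% and 98.4% of this sum in the control libraries and between 94.2% and 94.6% in the *Xbp1* siRNA libraries. The share of *Ereg* was between 1.24% and 1.44% with control siRNA and between 1.28% and 1.85% with *Xbp1* siRNA. *Hbegf* made up between 0.365% and 0.458% of the ligand sum with control siRNA and between 3.73% and 4.19% with *Xbp1* siRNA. The sum of these 6 ligands was thus almost entirely *Areg* in both conditions, and the share of *Hbegf* was larger where *Areg* and *Ereg* were lower. The neuregulin genes and *Egf* are outside this sum. Of these, *Nrg3* had a mean of 12.2 FPKM with control siRNA and 7.61 FPKM with *Xbp1* siRNA, above *Hbegf* in both conditions.

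**Figure D2:**
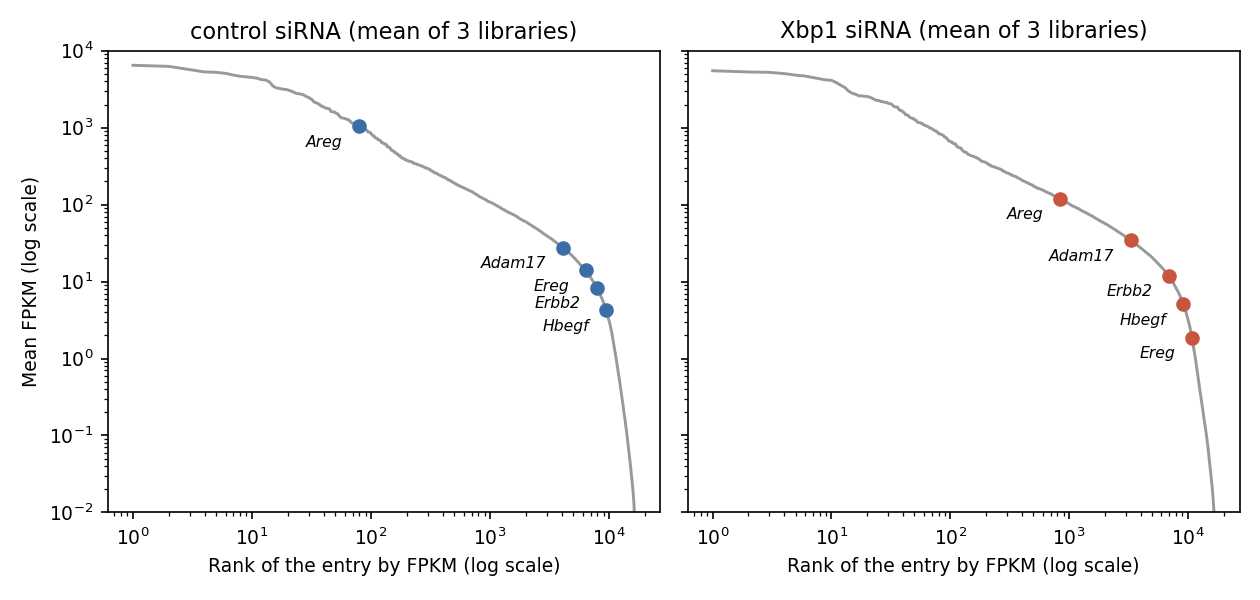
Mean FPKM of all entries above 0 against their rank (both axes logarithmic; grey line), with 5 family members marked, for control siRNA (left, blue) and *Xbp1* siRNA (right, red), each the mean of 3 libraries. *Areg* sits high on the curve with control siRNA and at about 119 FPKM with *Xbp1* siRNA, and *Ereg* passes from above *Erbb2* and *Hbegf* to below them.

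The receptors of these ligands were scarcely represented. *Egfr*, the receptor that binds amphiregulin, was listed at 0 in 5 libraries and at 0.0191 FPKM in control replicate 2. *Erbb3* was listed at 0 in 4 libraries, with 0.0237 FPKM in control replicate 1 and 0.0241 FPKM in *Xbp1* siRNA replicate 2, which after correction for depth stand for the same number of reads. *Erbb4*, a receptor outside the 10 genes, had at most 0.0252 FPKM with control siRNA and at most 0.0769 FPKM with *Xbp1* siRNA. At this depth *Egfr* and *Erbb3* were therefore not distinguishable from 0, and no fold change is given for them. CHO cells have long served as hosts for transfected ErbB receptors.

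*Erbb2*, which encodes the receptor without a known soluble ligand, was the one ErbB receptor gene with clear expression. It had 8.81, 8.35 and 7.91 FPKM with control siRNA and 12.4, 11.5 and 11.4 FPKM with *Xbp1* siRNA. All *Xbp1* siRNA libraries were above all control libraries. The mean with *Xbp1* siRNA was 1.41 times that with control siRNA, and the log2 fold change was 0.49 (standard error 0.073). The ratio of *Areg* to *Erbb2* transcripts per length was between 119 and 131 in the control libraries and between 9.79 and 10.5 in the *Xbp1* siRNA libraries.

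*Adam17* encodes the metalloproteinase that releases amphiregulin, epiregulin and several other members from the membrane. It had 27.4, 27.0 and 28.5 FPKM with control siRNA and 33.9, 35.5 and 34.1 FPKM with *Xbp1* siRNA. The conditions did not overlap, and the values with *Xbp1* siRNA were higher, at 1.25 times the control mean with a log2 fold change of 0.32 (standard error 0.044).

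By mean FPKM in the control libraries the order was *Areg*, *Adam17*, *Ereg*, *Erbb2* and *Hbegf*, followed by *Epgn*. With *Xbp1* siRNA it was *Areg*, *Adam17*, *Erbb2*, *Hbegf* and *Ereg*, again followed by *Epgn*. No neighbours in either order overlapped between the libraries of a condition. The remaining 4 genes, with a mean under 0.1 FPKM over the 6 libraries, could not be ordered.

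Calls were made with limma over the 14361 entries that had a mean of at least 0.1 FPKM, where the adjusted p was under 0.05 and the log2 fold change was 1 or more in either direction. Of the 10 family members 6 passed this filter on low values, and *Tgfa*, *Btc*, *Egfr* and *Erbb3* did not. *Areg* and *Ereg*, on which the family was chosen, were called lower. Over all entries tested, 2.50% were called lower and 2.69% higher. *Erbb2* and *Adam17* passed the adjusted p but not the fold limit, in the upward direction. With the fold limit dropped, 20.2% of all entries tested were higher, a share that includes entries that also reached the fold limit. For 2 of the 6 members all *Xbp1* siRNA libraries were below all control libraries and for 2 they were above them, against 25.8% and 26.1% of all entries tested. Since this comparison led to the choice of the family, nothing is read from these counts. The columns with *Xbp1* siRNA had the smaller sums, and setting all sums equal moved the median log2 fold change of all entries from 0.01 to 0.14. It also turned 386 entries called higher and 359 called lower (51.8% higher) into 566 and 254 (69.0% higher). Under that scaling *Areg* had a log2 fold change of −2.997, *Ereg* −2.71, *Erbb2* 0.62, *Adam17* 0.45 and *Hbegf* 0.40.

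*Epgn*, *Ereg* and *Areg* stand next to each other in the RefSeq gene table of the Chinese hamster (assembly CriGri-PICRH-1.0), in a row that chemokine genes precede. Since the build of the files is not given in the sources used here, the table was used for gene order only. It gives the same chromosome name to 2 sequences, and the order was read within the run of rising start positions that holds *Areg*, so the neighbours rest on that reading. All 10 named genes around *Areg*, 5 on each side, had a row in the files. *Btc* was not found under that symbol in the RefSeq table, so its place in this order is not known. Directly before the EGF family genes stand *Cxcl3* and *Cxcl1*, whose products attract neutrophils. *Cxcl3* had 28.8, 27.8 and 26.6 FPKM with control siRNA and 46.9, 45.0 and 41.6 FPKM with *Xbp1* siRNA, and the conditions did not overlap. Its log2 fold change of 0.68 (standard error 0.058; limma, adjusted p = 9.83e-05) was opposite in direction to the differences of *Areg* and *Ereg* and did not reach the fold limit. *Cxcl1* had a log2 fold change of 0.77 (standard error 0.32; limma, adjusted p = 0.0898) and its conditions overlapped.

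On the far side of *Areg*, the ubiquitin ligase gene *Rchy1* had 21.8 ± 1.42 FPKM in the control libraries and 23.3 ± 0.564 FPKM after silencing (SD, n = 3 each), with a log2 fold change of 0.09 (limma, adjusted p = 0.263). *Thap6* had a log2 fold change of 0.09 (limma, adjusted p = 0.567) and *Cdkl2* one of −0.04 (limma, adjusted p = 0.865). *Parm1* was listed at 0 in all libraries and *Odaph* was above 0 in 1 library. *Rassf6*, on the near side beyond *Cxcl3*, was listed at 0 in all libraries.

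**Figure D3:**
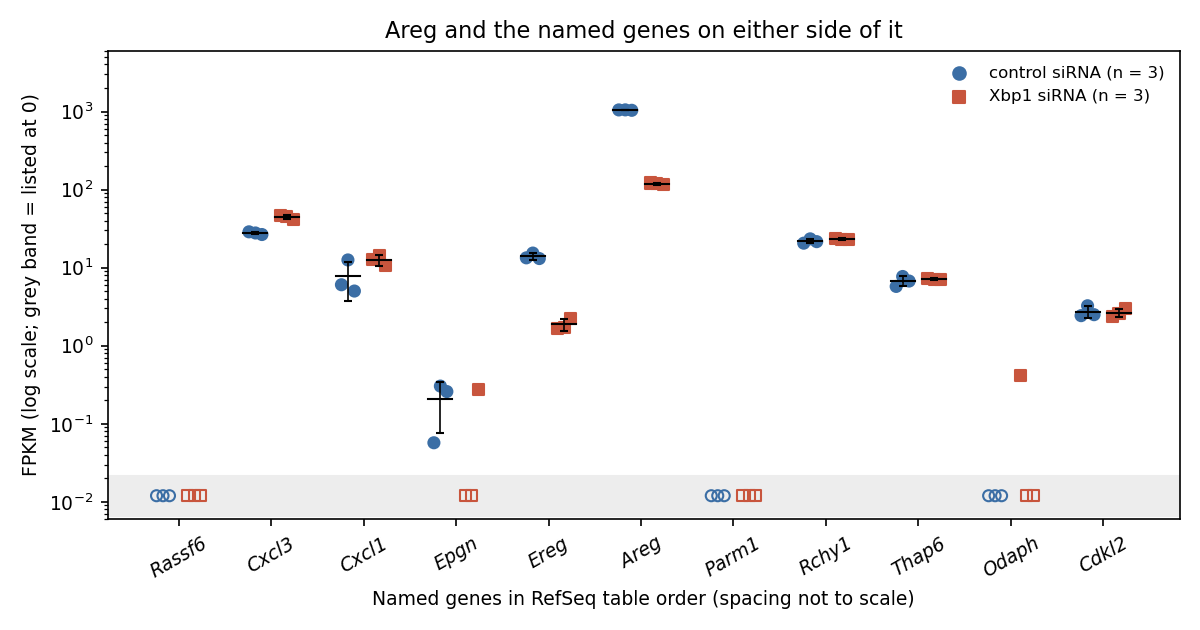
FPKM (log axis) of *Areg* and the 5 named genes on each side of it, in the order of the RefSeq table, with spacing not to scale. Symbols are as in the plot of the 10 genes, and black lines give mean ± SD where all 3 values were above 0. *Ereg* and *Areg* are lower with *Xbp1* siRNA (red) while *Cxcl3* is higher, and *Rchy1*, *Thap6* and *Cdkl2* overlap between the conditions.

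The genes whose profile over the 6 libraries was most like that of *Areg* were found by the Euclidean distance between log2(FPKM + 0.1) values centred on each gene's mean, among 9410 named genes with a mean of at least 1 FPKM. The nearest were *Ereg* and *Sumf1*, which encodes the enzyme that activates sulfatases, tied at a distance of 0.56, and then *Ms4a15* (0.80), a membrane protein gene. For *Ereg* the nearest were *Sumf1* (0.42), *Cpox* (0.54), a gene of heme synthesis, and *Areg* (0.56). *Sumf1* went from 24.8 ± 0.985 to 3.55 ± 0.529 FPKM (SD, n = 3 each) and *Cpox* from 19.1 ± 0.612 to 3.46 ± 0.581 FPKM (SD, n = 3 each). The distance rests mainly on the size of the difference between the conditions, so it describes genes of similar relative decrease, and *Areg* and *Ereg* were chosen together for their decreases. *Egfr*, with a value in 1 library, has no profile to compare.

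The other genes of the pathway were examined as 7 lists, drawn up from general knowledge but with earlier results of these data known. The counts and p-values of the lists are therefore no independent evidence. Together the lists held 92 genes. Of these, 89 symbols were found, on 90 rows, and 80 rows passed the filter. Across the lists 2 entries were called higher and 7 lower, or 2.5% and 8.75% of the 80, against 2.69% and 2.50% of all entries tested. At an adjusted p under 0.05 without the fold limit, 19 were higher and 27 lower, or 23.8% and 33.8%, against 20.2% of all entries in either direction. The median log2 fold change was 0.03 against 0.01 over all entries tested.

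The neuregulins are ligands of ErbB3, ErbB4 or both. Of 5 entries of other ligands tested, 1 was called higher and 1 lower, or 20% each, against 2.69% and 2.50% of all entries tested, and the median log2 fold change was −0.14. *Egf* itself had 0.0255, 0.0542 and 0.0260 FPKM with control siRNA and 0.0995, 0.114 and 0.0962 FPKM with *Xbp1* siRNA. Its conditions did not overlap, but it did not pass the filter on low values and was not tested. *Nrg2* fell from 5.36 ± 0.446 to 2.16 ± 0.0442 FPKM (SD, n = 3 each), a log2 fold change of −1.27 (limma, adjusted p = 1.09e-04). *Nrg3*, the most abundant of them, had 12.2 ± 1.13 FPKM with control siRNA and 7.61 ± 0.451 FPKM with *Xbp1* siRNA (SD, n = 3 each), a log2 fold change of −0.67 (limma, adjusted p = 8.62e-04) that did not reach the fold limit. *Nrg1* stands on 2 rows. One rose from 0.833 ± 0.209 to 2.30 ± 0.912 FPKM (SD, n = 3 each), with a log2 fold change of 1.32 (limma, adjusted p = 0.0115), and the other had a log2 fold change of 0.89 (limma, adjusted p = 0.436) with overlapping conditions. With a pseudocount of 1, the log2 fold change of the first row shrank to 0.82, under the fold limit.

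Among 15 tested entries for other receptors and receptor regulators, 0 were called by limma with the fold limit, and 5 were higher and 3 lower at an adjusted p under 0.05 (7 and 3 at an unadjusted p under 0.05). The 5 and 3 were 33.3% and 20% of the list, against 20.2% of all entries in either direction, and the median log2 fold change was 0.02. *Cbl*, which encodes a ubiquitin ligase that marks activated EGF receptor for degradation, had 29.2 ± 1.98 FPKM with control siRNA and 17.8 ± 0.561 FPKM with *Xbp1* siRNA (SD, n = 3 each), a log2 fold change of −0.70 (limma, adjusted p = 1.17e-04). *Errfi1*, the gene of the feedback inhibitor MIG6, had −0.65 (limma, adjusted p = 1.55e-04). On the other side, *Sh3kbp1*, a partner of CBL in endocytosis, had a log2 fold change of 0.79 (limma, adjusted p = 6.15e-04) and *Cblb* one of 0.43 (limma, adjusted p = 0.0225). *Cbl* and *Cblb*, which encode related ubiquitin ligases, thus lay on opposite sides of 0.

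Of 8 tested entries for sheddases and their regulators, 0 were called by limma with the fold limit, and 3 were higher and 1 lower at an adjusted p under 0.05 (4 and 1 at an unadjusted p under 0.05). The 3 and 1 were 37.5% and 12.5% of the list, set against the same 20.2%, and the median log2 fold change was 0.11. *Rhbdf2*, which encodes the rhomboid protein iRhom2 that carries ADAM17 to the cell surface, had 17.3 ± 0.472 FPKM with control siRNA and 27.6 ± 2.42 FPKM with *Xbp1* siRNA (SD, n = 3 each), a log2 fold change of 0.67 (limma, adjusted p = 2.94e-04). *Adam15* had a log2 fold change of 0.31 (limma, adjusted p = 0.00301). *Adam19*, the most abundant sheddase gene of the list, had 163 ± 2.75 and 111 ± 1.71 FPKM (SD, n = 3 each), a log2 fold change of −0.55 (limma, adjusted p = 1.54e-05). *Rhbdl2* had −0.43 (limma, adjusted p = 0.108). *Adam10*, which can release EGF and betacellulin, had a log2 fold change of 0.16 (limma, adjusted p = 0.0668), and was named after its values were seen.

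For transport of the ligands through the secretory pathway, from the endoplasmic reticulum and Golgi to the cell surface, 5 entries were tested, 0 were called by limma with the fold limit, and 3 were higher and 1 lower at an adjusted p under 0.05 (also 3 and 1 at an unadjusted p under 0.05). These were 60% and 20% of the list, beside 20.2% of all entries tested in either direction, and the median log2 fold change was 0.14. *Cnih1*, the gene of a cargo receptor of the cornichon family, had 224 ± 12.6 FPKM with control siRNA and 191 ± 10.2 FPKM with *Xbp1* siRNA (SD, n = 3 each), a log2 fold change of −0.23 (limma, adjusted p = 0.0130). Its relative *Cnih4* had a log2 fold change of 0.36 (limma, adjusted p = 6.36e-04) and *Ap1m1*, a subunit of a sorting adaptor, one of 0.26 (limma, adjusted p = 0.0196).

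Of 15 adaptors and members of the ERK cascade, all tested, 0 were called by limma with the fold limit, and 5 were higher and 2 lower at an adjusted p under 0.05 (6 and 3 at an unadjusted p under 0.05). The 5 and 2 were 33.3% and 13.3% of the list, where 20.2% of all entries passed in either direction, and the median log2 fold change was 0.07. *Sos2*, which encodes an exchange factor that activates RAS, had a log2 fold change of −0.55 (limma, adjusted p = 8.14e-04) and *Shc1* one of −0.43 (limma, adjusted p = 9.75e-05). *Rasa1*, which encodes a GTPase-activating protein that turns RAS off, had 0.53 (limma, adjusted p = 4.34e-04). *Mapk3*, the gene of ERK1, had 80.7 ± 1.82 FPKM with control siRNA and 103 ± 3.30 FPKM with *Xbp1* siRNA (SD, n = 3 each), a log2 fold change of 0.35 (limma, adjusted p = 2.84e-04).

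Of 19 tested genes that ERK signalling is known to induce, 5 were called lower and 1 higher, or 26.3% and 5.26%, against 2.50% and 2.69% of all entries tested. At an adjusted p under 0.05 without the fold limit 12 were lower and 1 higher, or 63.2% and 5.26%, against 20.2% in either direction. The median log2 fold change was −0.53 against 0.01 over all entries tested. A list of ERK targets was already known to be lower in these data, so these counts are no independent evidence. *Egr1*, an immediate early transcription factor gene, fell from 25.7 ± 0.586 to 8.27 ± 0.253 FPKM (SD, n = 3 each), a log2 fold change of −1.62 (limma, adjusted p = 2.17e-06). *Dusp6*, which encodes a phosphatase that inactivates ERK, fell by 1.47 on the log2 scale (limma, adjusted p = 9.09e-05). *Dusp4*, another phosphatase gene of this family, fell by 1.18 and *Ier3* by 1.16. *Egr3* fell from 1.74 ± 0.322 to 0.685 ± 0.0459 FPKM (SD, n = 3 each), with a log2 fold change of −1.21 that was −0.69 and not called with a pseudocount of 1. *Spry1*, which encodes an inhibitor of receptor tyrosine kinase signalling, rose from 0.694 ± 0.135 to 1.75 ± 0.497 FPKM (SD, n = 3 each), a log2 fold change of 1.20 (limma, adjusted p = 0.00835) that was 0.69 and not called with a pseudocount of 1.

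Among 13 tested transcription factors and cofactors that are known to act on *Areg*, 1 was called lower and 0 higher by limma, or 7.69% and 0%, against 2.50% and 2.69% of all entries tested. At an adjusted p under 0.05 without the fold limit 6 were lower and 1 higher (7 and 2 at an unadjusted p under 0.05), or 46.2% and 7.69%, against 20.2% of all entries in either direction, and the median log2 fold change was −0.09. *Wwtr1*, which encodes the Hippo pathway cofactor TAZ, fell from 15.0 ± 1.18 to 5.52 ± 0.502 FPKM (SD, n = 3 each), a log2 fold change of −1.43 (limma, adjusted p = 3.16e-05). Its relative *Yap1* had 49.4 ± 1.93 FPKM with control siRNA and 53.4 ± 0.146 FPKM with *Xbp1* siRNA (SD, n = 3 each), with a log2 fold change of 0.11 (limma, adjusted p = 0.0591), and was named after its values were seen. *Crtc2*, a cofactor of the cAMP-responsive factor CREB, had a log2 fold change of −0.52 (limma, adjusted p = 1.80e-04). *Crtc3*, of the same family, had 0.22 (limma, adjusted p = 0.00620) and *Epas1* 0.63 (limma, adjusted p = 0.109).

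**Figure D4:**
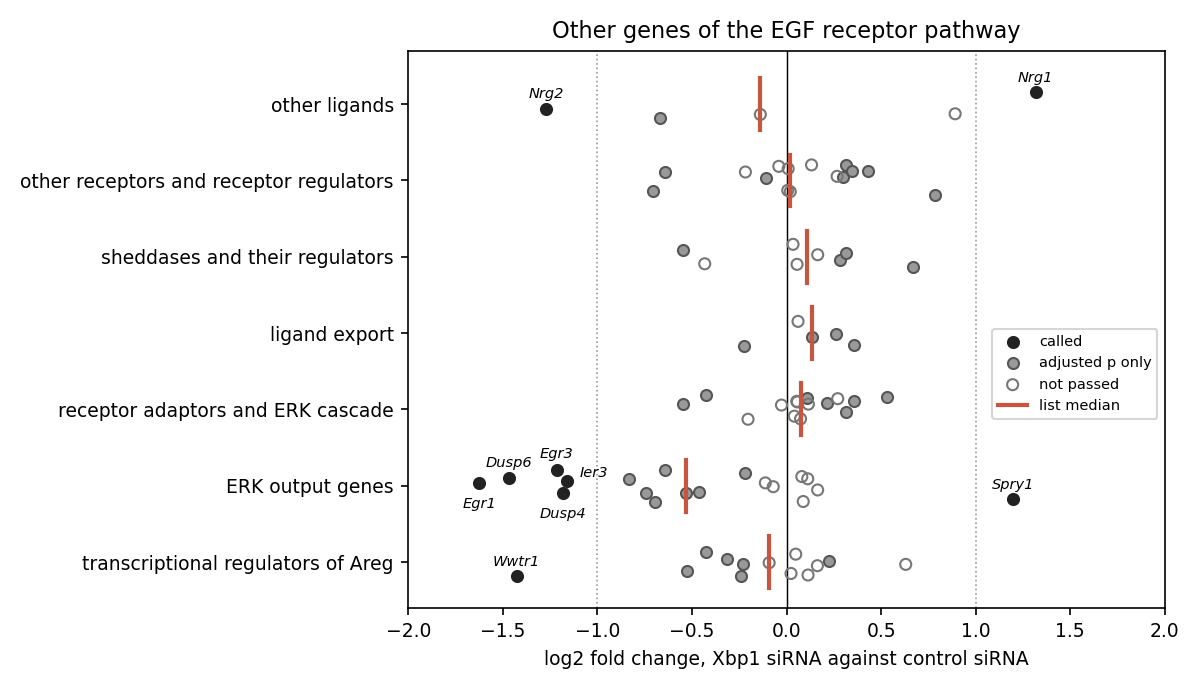
log2 fold change (*Xbp1* siRNA against control siRNA, on the log2(FPKM + 0.1) scale) of the 80 entries tested in the 7 lists of other pathway genes, 1 point per entry. Black points were called, grey points passed the adjusted p only, open points passed neither, red bars are list medians, dotted lines mark the fold limit, and the vertical scatter within a list has no meaning. Most lists centre near 0, and the ERK output genes have a median of −0.53, with *Egr1*, *Dusp6*, *Egr3*, *Dusp4* and *Ier3* called lower.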

How the data were processed

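Stranded mRNA libraries of CHO-T cells were analysed, 3 per condition. The authors deposited 1 FPKM column per library, and the submitters' processing notes name HISAT2 2.1.0 and Cuffdiff 2.2.1. The genome build and annotation are not given in the sources used here. On the scale of log2(FPKM + 0.1), the conditions were compared by limma 3.58.1 (R 4.3.3; lmFit and eBayes with trend, two-sided, Benjamini-Hochberg adjustment over the 14361 entries with a mean of at least 0.1 FPKM), after a check on simulated data. The limits for calls are those of the study's methods. A log2(FPKM + 0.1) fold change understates that of low genes. The members and gene lists were chosen with earlier results of these data known. Pathway genes named are those called or among the 2 largest changes in either direction of their list, beside *Adam10*, *Yap1*, *Egf* and *Erbb4*, which were named after their values were seen. Of 27311 symbols, 88.0% were found in the RefSeq table, *Btc* not among them. No protein or promoter sequences were used here. Alternatives were other pseudocounts, filters, scalings and variance priors, no fold limit, the replicate number as a block and leaving out each library. Python 3.11.15, pandas 2.3.3 and numpy 2.4.6 were used.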

Additional observations from a re-analysis of the deposited data

How the results depend on the processing

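Under the 16 alternatives the log2 fold changes of *Areg* lay between −3.15 and −2.95 and those of *Ereg* between −2.97 and −2.38, which describes the scale only, since both were chosen for their decreases in these libraries. Those of *Erbb2* lay between 0.45 and 0.62, those of *Adam17* between 0.30 and 0.45, those of *Hbegf* between 0.20 and 0.40 and those of *Epgn*, which did not pass the filter at a mean of 1 FPKM and so has 15 alternatives, between −2.55 and −0.15. The log2 fold change of *Xbp1* lay between −3.89 and −3.28. With a pseudocount of 1, which shrinks the fold changes of low genes, 114 of all entries were called higher and 205 lower, 0 pathway entries higher, and *Nrg1*, *Spry1* and *Egr3* were not called. The balance of calls (386 higher and 359 lower) turned with a filter at a mean of 1 FPKM, which tests fewer entries (242 higher and 296 lower), with quantile normalization (309 and 376), and without *Xbp1* siRNA replicate 1 (329 and 361), 2 (338 and 362) or 3 (351 and 369), as it did with a pseudocount of 1 and without the fold limit. Without the fold limit 2898 entries were higher and 2904 lower, among them 2 family members higher (*Erbb2* and *Adam17*) and 19 pathway entries higher and 27 lower. Leaving out 1 library gave 329 to 380 entries higher and 346 to 369 lower, with 2 family members and 7 pathway entries lower and 2 pathway entries higher each time. Equal column sums were added after the sums were seen. With the replicate block 363 entries passed both limits upward and 353 downward. The block was not used otherwise, because same-numbered libraries did not deviate together from the means of their conditions (r across genes −0.029, −0.027 and −0.012). Depth limits the statements on *Tgfa*, *Btc*, *Epgn*, *Egfr* and *Erbb3*.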
